A study of Mus musculus with 4 samples.

Results

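The RNAs transcribed from the mitochondrial genome were followed in the posterior eye of C3H/f+/+ mice, a strain that makes melatonin and is free of the Pde6b mutation carried by the original C3H. They were taken as every row of the deposited table whose gene name begins with mt-, which gave 33 of 22863 genes. The annotation of the mouse mitochondrial genome (GENCODE M21, GRCm38) lists 37 such genes, namely 13 mRNAs, 2 rRNAs and 22 tRNAs. Of these, 12 mRNAs, both rRNAs and 19 tRNAs were in the table, while mt-Nd4l, mt-Tf, mt-Tv and mt-Ti were not analysed here. The rule used names only, but this gene family was picked because its mRNAs were already known to be lower in objective day in these 4 samples, so all differences between the conditions are given here as a description.

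RNA-seq of 2 samples from subjective day was compared with 2 samples from objective day. Subjective day mice were tested at CT 6 (noon) after 18 hours of darkness according to the Methods, although another passage gives 30 hours, and objective day mice at ZT 6 after light in the morning and 1 hour of darkness. Each sample pooled the 4 eyes of 2 mice, a female and a male, with retina, RPE, choroid and posterior sclera retained, and the age of these mice was not stated. The conditions thus shared the clock time and differed in light history. The paper compared them after hypothesizing that the visual cycle is lowered at the molecular level in objective day. Polyadenylated RNA was sequenced as single reads of 50 bases on a shared lane. The deposited values have decimals and sums that are close between samples, from 33278417 to 35236783. They are read here, from the values alone, as counts per gene that had been adjusted for library size, and they are called adjusted counts below. How they were adjusted is not given in the sources used here, so the depth behind each value is unknown. Rod photoreceptor markers were abundant in every sample, with summed adjusted counts of 2103083 to 2646940 over 9 genes, while Best1, an RPE marker, did not exceed 9.70 in any sample although 5 of 6 RPE markers passed the filter on low values.

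Mitochondria keep a small circular genome that encodes core subunits of the respiratory chain along with the rRNAs and tRNAs needed to translate them. Both strands are transcribed into long precursors, from which the tRNAs are cut out and so release the mRNAs and rRNAs between them, a scheme known as tRNA punctuation. Most mitochondrial mRNAs are then given a short poly-A tail, which in several of them also completes the stop codon. Photoreceptors hold dense mitochondria in their inner segments, and the retina is among the tissues with the highest oxygen use.

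Together the mitochondrial genes made up 6.06% and 6.38% of all adjusted counts in the subjective day samples and 3.40% and 2.63% in the objective day samples. The share was therefore lower in both objective day samples than in either subjective day sample, and the summed level was 2.11-fold higher in subjective day. An exact permutation test on so few samples, if two-sided, cannot give a p below 1 in 3. In bulk tissue, fewer cells or mitochondria of a kind and less RNA in each of them cannot be told apart. Of the 33 genes, 28 had at least 10 adjusted counts in at least 2 samples and were compared with limma on a log2(value + 1) scale, on which fold changes of low values are understated. All 12 mRNAs and both rRNAs, whose values were far above this minimum in every sample, had a log2 fold change below 0, with medians of -1.48 and -1.37 compared with 0.015 over all 17784 genes tested. Of the 14 tRNAs tested, 4 passed the filter through subjective day alone and so had to be lower in objective day, and counts over all 28 are therefore given as totals only. Of the 28, 19 were called lower at an adjusted p under 0.05 in limma's fit over all genes (10 mRNAs, 2 rRNAs and 7 tRNAs), where the background was 7.45% of genes called lower, and 0 were called higher, also at an unadjusted p under 0.05. In the 12 mRNAs and 2 rRNAs both objective day samples lay below both subjective day samples, which held for 28.2% of all genes tested. The number of calls, over all genes as well, depended on the model. With the trend of values with GC content removed from each sample, 6 of the 28 were called lower (4 mRNAs and 2 tRNAs) against a background of 0.633%. When limma's variance prior was held the same at all expression levels, 0 of the 28 were called, against a background of 0% of all genes. In that fit 24 of the 28 had an unadjusted p under 0.05, as did 3586 of all 17784 genes.

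The table holds 12 mRNAs from 204 to 1824 bases long, and all of them had lower values in both objective day samples than in either subjective day sample. Their median log2 fold change was -1.48, and 10 of the 12 were called lower. They are described in order of the respiratory complex to which their proteins belong.

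**Figure D1:**
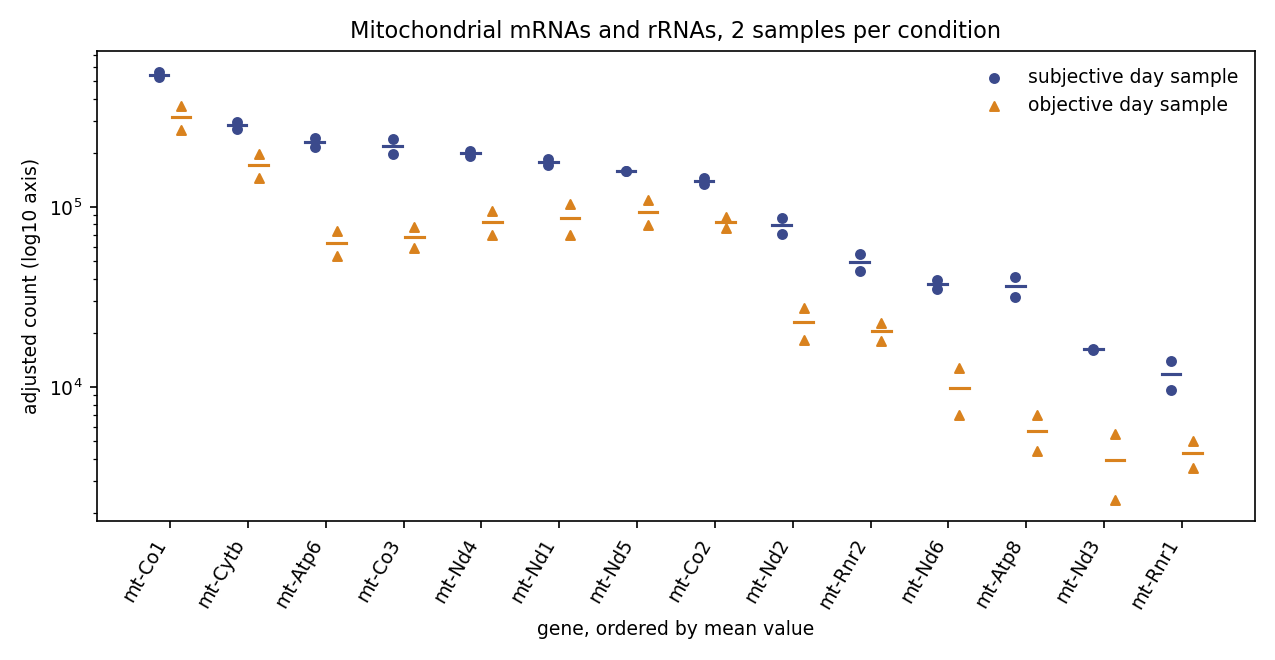
Adjusted counts of the 12 mRNAs and 2 rRNAs on a log10 axis, genes ordered by mean value along the horizontal axis, with circles for the 2 subjective day samples, triangles for the 2 objective day samples and bars for the mean of each condition. The conditions do not overlap for any of the 14 genes, and the gap is widest for mt-Atp8.

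Complex I, the NADH dehydrogenase through which electrons enter the chain, takes 7 of its subunits from the mitochondrial genome, and 6 of their mRNAs were in the table. The level of mt-Nd1 was 171920 and 185280 in subjective day, compared with 103560 and 69796 in objective day, a log2 fold change of -1.07 (SE 0.19). The values of mt-Nd2 were 70833 and 87342 in subjective day, compared with 27631 and 18392 in objective day (log2 fold change -1.80, SE 0.19). These neighbours thus differed in how far they were lowered, although they lie on the same strand with only tRNAs between them. For mt-Nd3, the shortest of the 6, the values were 16135 and 16389 in subjective day, compared with 5487 and 2377 in objective day (log2 fold change -2.17, SE 0.32). Its log2 fold change ran from -2.77 to -1.57 with each sample left out, and was -1.17 with the GC trend removed. For mt-Nd4 the values were 192960 and 203700 against 95519 and 69486 (log2 fold change -1.28, SE 0.17). For mt-Nd5, the longest, they were 157430 and 158670 against 108980 and 79147 (log2 fold change -0.77, SE 0.17). Hence, among the 6 complex I mRNAs in the table, the longest had the smallest difference and the shortest the largest. The sixth mRNA, mt-Nd6, is described with the minus strand.

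Complex III receives a single subunit from this genome, cytochrome b. The values of mt-Cytb were 296350 and 270700 in subjective day, compared with 196520 and 144270 in objective day, so that the objective day mean was 60.1% of the subjective day mean. Its log2 fold change was -0.75 (SE 0.19), and it was 1 of the 2 mRNAs that were not called, although both alternative scalings called it. With the GC trend removed its log2 fold change was -0.26.

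Complex IV, the cytochrome c oxidase that hands electrons to oxygen, has its 3 core subunits encoded here. The mRNA of mt-Co1 was the most abundant of all, with 560340 and 525980 in subjective day, compared with 363300 and 268920 in objective day. Its log2 fold change of -0.80 (SE 0.23) was not called, but was with samples scaled to the sum of the genes that are not mitochondrial. For mt-Co2 the values were 134450 and 144350 in subjective day, compared with 87812 and 76624 in objective day (log2 fold change -0.76, SE 0.13). The third mRNA, mt-Co3, had 196860 and 239150 in subjective day but 77816 and 58983 in objective day (log2 fold change -1.68, SE 0.17). In objective day the level of mt-Co3 was 21.4% and 21.9% of that of mt-Co1 in the same sample, compared with 35.1% and 45.5% in subjective day. Thus the mRNAs of a single enzyme were not lowered in proportion.

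Complex V, the ATP synthase, has 2 subunits of its proton channel encoded by mt-Atp8 and mt-Atp6, whose reading frames overlap and which are known to be carried on a shared mRNA. The reading frame of mt-Atp8 lies at chrM:7766-7969 on the plus strand (GRCm38, GENCODE M21 transcript), and it is shown because mt-Atp8 had the largest difference among the mRNAs. Capitals mark the 43 bases that it shares with the start of mt-Atp6:

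mt-Atp8: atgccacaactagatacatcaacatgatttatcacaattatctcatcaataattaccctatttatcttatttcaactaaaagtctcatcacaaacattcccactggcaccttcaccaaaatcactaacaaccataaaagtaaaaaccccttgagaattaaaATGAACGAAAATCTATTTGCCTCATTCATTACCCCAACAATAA

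The values of mt-Atp8 were 31650 and 41111 in subjective day, compared with 6968 and 4405 in objective day. The objective day mean was 15.6% of the subjective day mean, with a log2 fold change of -2.70 (SE 0.21). For mt-Atp6 the values were 216220 and 241420 in subjective day, compared with 73304 and 53737 in objective day (log2 fold change -1.86, SE 0.17). Although both frames are on a shared mRNA, the adjusted count of mt-Atp8 was 9.51% and 8.20% of that of mt-Atp6 in objective day, compared with 14.6% and 17.0% in subjective day, and these ranges did not overlap. Reads that touch both frames can be assigned to either or to neither depending on the counting mode, which is not given in the sources used here, so the level of mt-Atp8 is uncertain.

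Per kilobase of gene, the mRNAs ranged in subjective day from 351560 adjusted counts for mt-Co1 to 46730 for mt-Nd3. The next genes below mt-Co1 were mt-Atp6 with 336006, mt-Co3 with 278068 and mt-Cytb with 247837 adjusted counts per kilobase. The samples of mt-Co1 and mt-Atp6 overlapped, as did those of mt-Co3 and mt-Cytb, so the order within these pairs is not resolved. In objective day mt-Co1 again had the highest mean, 204602 per kilobase, but it was followed by mt-Cytb with 148947 and mt-Co2 with 120202, and mt-Atp6 with 93275 was in the fourth place. The samples of mt-Cytb and mt-Co2 overlapped in objective day, as did those of mt-Atp6 and mt-Nd1, so these places are not resolved either. The mean of mt-Atp8 was 178336 adjusted counts per kilobase in subjective day, where its samples overlapped those of mt-Nd1 and mt-Co2. In objective day it was 27875, and its samples overlapped those of mt-Nd2. Among the mRNAs mt-Nd3 had the lowest mean in both conditions, although in objective day its samples overlapped those of mt-Nd6.

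The makeup of the mitochondrial signal, which does not depend on how samples are scaled to each other, differed accordingly. As a share of all mitochondrial adjusted counts, mt-Co1 took 26.2% and 23.6% in subjective day, compared with 30.6% and 30.7% in objective day. The share of mt-Cytb was 13.9% and 12.2% in subjective day against 16.5% and 16.5% in objective day. Conversely, mt-Atp6 took 10.1% and 10.9% in subjective day, compared with 6.17% and 6.14% in objective day. In all, 4 mRNAs (mt-Co1, mt-Cytb, mt-Nd5 and mt-Co2) held a larger share in both objective day samples than in either subjective day sample, 7 held a smaller share, and mt-Nd1 overlapped.

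**Figure D2:**
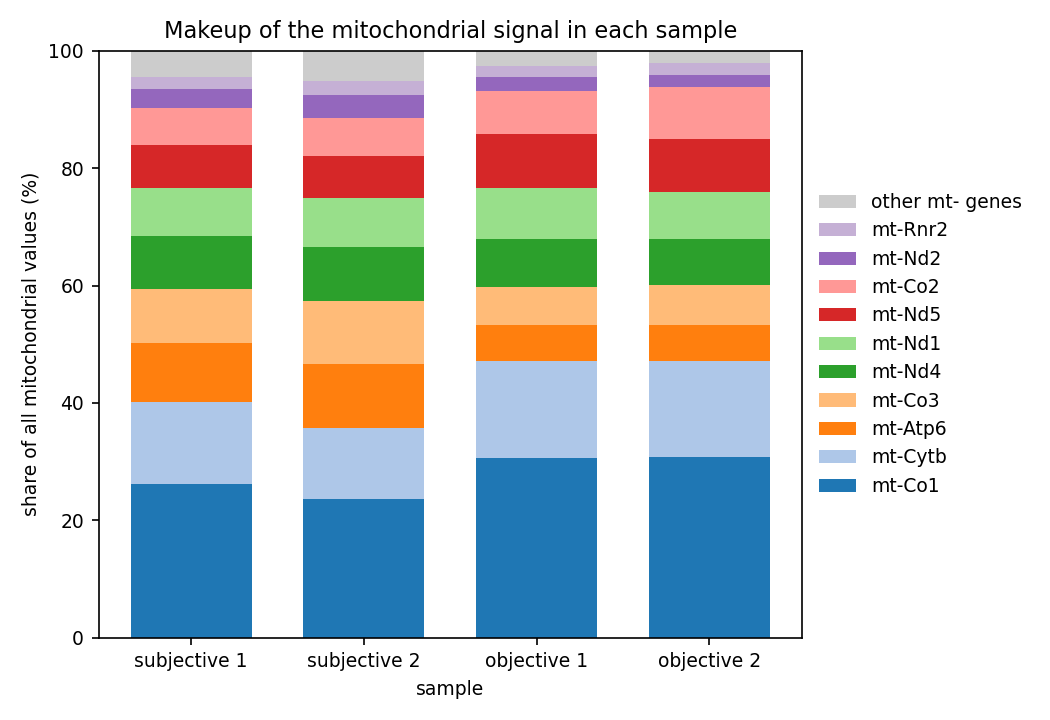
Stacked bars of the share of all mitochondrial adjusted counts, in percent, held by the 10 genes with the largest share in subjective day and by all others, with a bar for each of the 4 samples. The band of mt-Co1 is wider in both objective day samples (30.6% and 30.7%) than in the subjective day samples (26.2% and 23.6%), and that of mt-Atp6 is narrower.

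The size of the difference varied with features of the mRNAs. Across the 12 mRNAs the log2 fold change had a Spearman correlation of 0.75 with length, of 0.82 with GC content and of 0.61 with the mean level, given as a description because the points share the same 4 libraries and because level and length were themselves related (0.62). Across the 8 tRNAs with at least 10 adjusted counts in every sample the same correlations were 0.32, -0.17 and -0.19. The 4 mRNAs with a log2 fold change above -1 had a GC content of 37.1% to 39.9%, while mt-Atp8 had 31.9% and mt-Nd3 had 33.05%. An exception was mt-Co3, with 38.9% GC and a log2 fold change of -1.68. With the GC trend removed from each sample, the median of the mRNAs was -0.78 instead of -1.48, and 4 of the 12 were called beside a background of 0.633%. These were mt-Nd2, mt-Atp8, mt-Atp6 and mt-Co3, while mt-Nd1, mt-Nd3, mt-Nd4, mt-Nd5, mt-Nd6 and mt-Co2 lost their call. The part of GC content and length in these differences cannot be told apart.

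**Figure D3:**
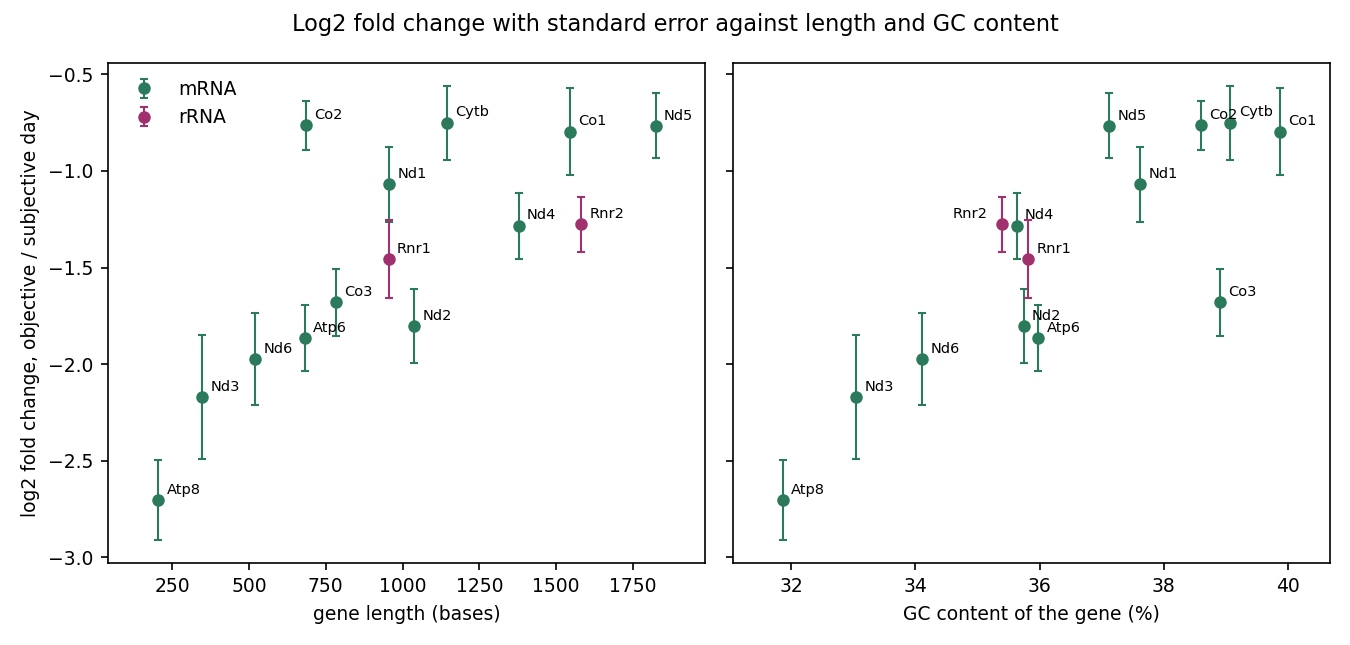
Log2 fold change of objective over subjective day for 12 mRNAs and 2 rRNAs (points, with bars for the standard error of limma's fit) against gene length in bases on the left and GC content in percent on the right. The short, GC-poor mt-Atp8 lies lowest at -2.70 and mt-Nd5, mt-Cytb, mt-Co1 and the shorter mt-Co2 lie between -0.80 and -0.75, while mt-Nd4, longer than mt-Cytb, lies at -1.28.

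Nuclear genomes hold copies of mitochondrial sequence, which can share reads with the genes above. Among annotated mouse transcripts, 15 nuclear genes shared at least 1 exact stretch of 50 bases, the read length, with a mitochondrial gene, and 12 of them shared at least 100 bases. The share of 50-base windows found again in a nuclear transcript was 100% for mt-Co2, 99.9% for mt-Co3, 99.5% for mt-Atp6 and 98.0% for mt-Nd3, and it was 0% for mt-Atp8, mt-Cytb, mt-Nd1 and mt-Nd6. The nuclear genome outside annotated transcripts was not searched. Across the 12 mRNAs this share had a Spearman correlation of 0.057 with the log2 fold change. Of the 12 copies, 5 were in the table, all with values far below those of the mitochondrial genes. The largest was Gm13340, a pseudogene of mt-Co1, with 185 and 146 adjusted counts in subjective day, compared with 96.6 and 71.5 in objective day (log2 fold change -0.97, SE 0.20, adjusted p = 0.0302 in limma's fit). Gm13341, a pseudogene of mt-Co2, had 34.0 and 32.2 in subjective day, compared with 23.6 and 24.9 in objective day (log2 fold change -0.43, SE 0.27, adjusted p = 0.361 in limma's fit). The other 3 (Gm4076, Gm11407 and Gm10222) did not exceed 15.2 in any sample and were not tested. Counts of the genes with shared windows are uncertain for this reason.

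The mitochondrial ribosome contains a 12S rRNA in its small subunit and a 16S rRNA in its large subunit, encoded next to each other by mt-Rnr1 and mt-Rnr2. The values of mt-Rnr1 were 9629 and 13997 in subjective day, compared with 5051 and 3538 in objective day (log2 fold change -1.46, SE 0.20). Those of mt-Rnr2 were 44010 and 55052 in subjective day, compared with 22787 and 18104 in objective day (log2 fold change -1.28, SE 0.14). Both were called lower in the main fit and neither with the GC trend removed, where their median was -0.60. The ratio of 12S to 16S was 22.2% and 19.5% in objective day, compared with 21.9% and 25.4% in subjective day, so the conditions overlapped. Per kilobase, both rRNAs were below every mRNA in subjective day, with 12370 for mt-Rnr1 and 31309 adjusted counts for mt-Rnr2. In objective day mt-Rnr2, with 12924 per kilobase, had a higher mean than mt-Nd3 with 11299, and their samples overlapped. These libraries were selected for poly-A tails, and mitochondrial rRNAs carry at most very short tails, so their level here does not stand for that in the tissue. As a share of the mitochondrial signal, the rRNAs took 2.51% and 3.10% in subjective day, compared with 2.34% and 2.47% in objective day.

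The tRNA genes, from 59 to 75 bases long, gave very low values, with 0.0938% and 0.0853% of the mitochondrial signal in subjective day, compared with 0.0738% and 0.0629% in objective day. A mature tRNA has no poly-A tail and is only slightly longer than a read, and mature tRNAs and uncut precursors cannot be told apart here. Of the 19 tRNA genes, 14 were tested and 7 of them were called lower, but 4 of the 14 (mt-Th, mt-Ts2, mt-Tl2 and mt-Tp) passed the filter through the subjective day samples alone, which fixes their direction, and 3 of these 4 were among the 7. No summary over the tRNAs that passed is therefore read as a result. Among the 8 with at least 10 adjusted counts in every sample, 4 were called, beside the background of 7.45%.

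Among the 3 tRNAs with the highest values, mt-Tl1 and mt-Ts1 are shown beside their lowly detected counterparts for the same amino acid, since leucine and serine are each served by a pair of tRNAs in this genome. Positions are on GRCm38, sequences are GENCODE M21 transcripts written 5′ to 3′ as DNA, and capitals mark the anticodon, taken as the triplet expected for each tRNA that is preceded by T and followed by A or G. The leucine tRNAs lie at chrM:2676-2750 and chrM:11671-11741 on the plus strand. The serine tRNAs lie at chrM:6870-6938 on the minus strand and chrM:11613-11671 on the plus strand:

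mt-Tl1: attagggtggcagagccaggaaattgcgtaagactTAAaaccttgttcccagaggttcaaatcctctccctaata
mt-Tl2: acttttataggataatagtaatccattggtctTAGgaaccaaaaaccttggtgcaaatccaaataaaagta
mt-Ts1: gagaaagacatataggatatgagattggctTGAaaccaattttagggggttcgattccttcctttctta
mt-Ts2: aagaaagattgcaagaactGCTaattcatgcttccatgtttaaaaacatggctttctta

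Of the leucine pair, mt-Tl1 had 553 and 351 adjusted counts in subjective day, compared with 292 and 221 in objective day (log2 fold change -0.79, SE 0.22, not called). It sits between mt-Rnr2 and mt-Nd1, with no spare base on either side. In contrast, mt-Tl2 had 20.97 and 11.3 in subjective day but 0.953 and 0 in objective day, too few for a fold change. Of the serine pair, mt-Ts1 had 525 and 354 in subjective day, compared with 223 and 112 in objective day (log2 fold change -1.44, SE 0.31), a call that was lost with the GC trend removed, where it was -0.85. It lies on the minus strand directly behind mt-Co1, with which it shares 3 bases, and the mt-Co1 mRNA is known to run on across it. Its partner mt-Ts2, which is shorter than a standard tRNA, had 12.0 and 15.4 in subjective day, compared with 0.953 and 0 in objective day. Thus in both pairs the counterpart stayed below 5% of the higher tRNA in all 4 samples. The genes mt-Th, mt-Ts2 and mt-Tl2 follow each other between mt-Nd4 and mt-Nd5, and mt-Th likewise had 14.97 and 38.2 adjusted counts in subjective day, compared with 0 and 3.87 in objective day.

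On the minus strand, mt-Te and mt-Tc differed most among the tRNAs with at least 10 adjusted counts in every sample. Their genes lie at chrM:14071-14139 and chrM:5192-5257, and the sequences are marked as above:

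mt-Te: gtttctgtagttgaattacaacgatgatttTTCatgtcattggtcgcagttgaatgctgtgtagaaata
mt-Tc: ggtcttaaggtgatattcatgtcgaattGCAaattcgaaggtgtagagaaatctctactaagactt

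For mt-Te, the glutamate tRNA, the values were 399 and 589 in subjective day, compared with 129 and 60.8 in objective day (log2 fold change -2.44, SE 0.34). For mt-Tc, the cysteine tRNA, they were 113 and 133 against 30.4 and 20.9 (log2 fold change -2.23, SE 0.25). Both were called and the conditions did not overlap, but with the GC trend removed mt-Te had a log2 fold change of -1.60 and was not called, while mt-Tc still was. The methionine tRNA mt-Tm, on the plus strand before mt-Nd2, had 128 and 165 in subjective day, compared with 58.5 and 65.1 in objective day (log2 fold change -1.22, SE 0.19).

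The tRNAs not described so far had lower mean values than mt-Te, mt-Tc and mt-Tm. The alanine tRNA mt-Ta had 45.9 and 37.8 in subjective day, compared with 42.8 and 18.9 in objective day, and it was the gene tested whose conditions overlapped. Its log2 fold change of -0.53 (SE 0.39) turned to 0.037 without objective day replicate 2 and to 0.44 with the GC trend removed. The asparagine tRNA mt-Tn had 55.9 and 33.7 against 22.8 and 11.4, and the tyrosine tRNA mt-Ty had 33.9 and 45.2 against 25.6 and 16.2, in each case with subjective day given before objective day. Neither was called. Values of mt-Tq, mt-Tw and mt-Tp ranged from 13.0 to 45.8 in subjective day and from 1.83 to 20.9 in objective day, and none of the 3 was called. These calls turned on single samples, since mt-Tl1, mt-Tn and mt-Tw were called without objective day replicate 1, mt-Tp without subjective day replicate 1 and mt-Tl1 without subjective day replicate 2. The 5 that were not tested, mt-Tr, mt-Tg, mt-Tk, mt-Td and mt-Tt, stayed at or below 19.0 in every sample, and mt-Tt was nearly undetected with at most 1.11.

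**Figure D4:**
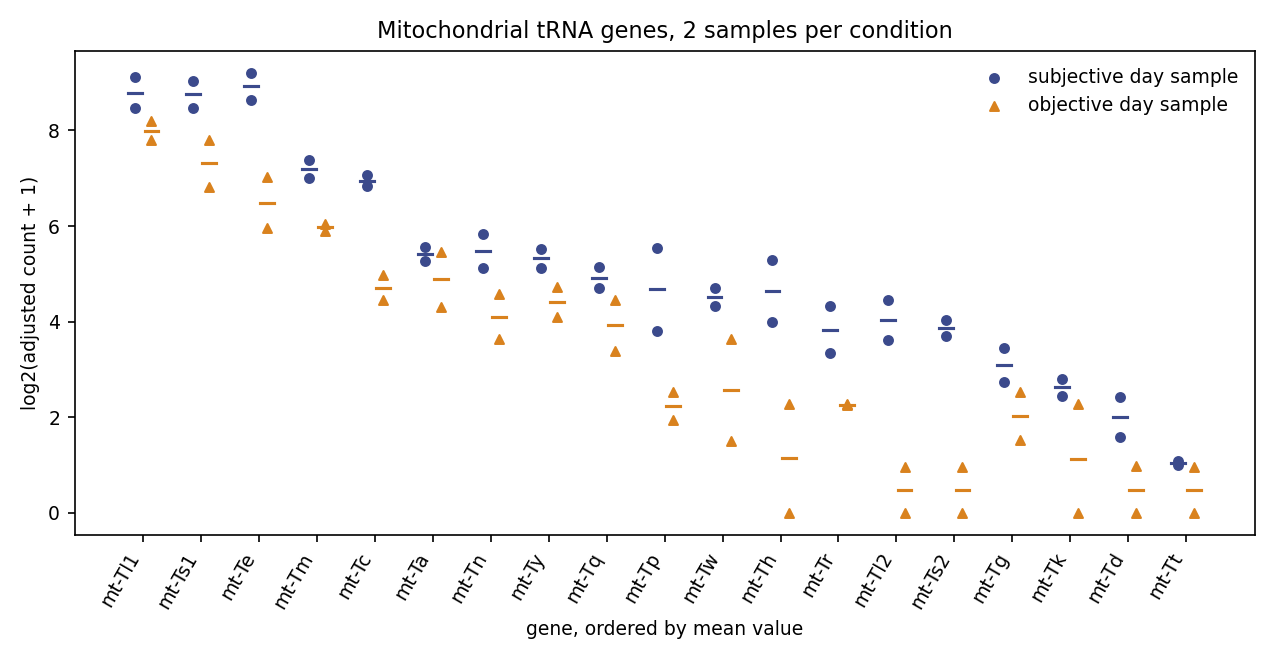
Values of the 19 tRNA genes as log2(adjusted count + 1), genes ordered by mean value along the horizontal axis, with circles for the 2 subjective day samples, triangles for the 2 objective day samples and bars for the mean of each condition. A few tRNAs (mt-Tl1, mt-Ts1 and mt-Te) stand above the rest, and most others are near the lower end of the scale.

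The genes were also grouped by strand. In the reference, 24 of the 33 genes in the table lie on the plus strand and 9 on the minus strand, namely mt-Nd6 and 8 tRNAs. Whether counting used the strand of the reads is not given in the sources used here, and the protocol names no step that marks it, so reads from a minus strand gene and from RNA antisense to it cannot be told apart. The values of mt-Nd6, the complex I subunit encoded alone on that strand, were 34919 and 39525 in subjective day, compared with 12738 and 7010.3 in objective day (log2 fold change -1.97, SE 0.24). With the GC trend removed its log2 fold change was -1.07 and its call was lost. The mt-Nd6 gene overlaps mt-Nd5 of the opposite strand by 14 bases, and the mt-Nd5 mRNA is known to extend past its reading frame across mt-Nd6. The adjusted count of mt-Nd6 was 11.7% and 8.86% of that of mt-Nd5 in objective day, compared with 22.2% and 24.9% in subjective day, so that mt-Nd6 was lower relative to its neighbour in both objective day samples.

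Minus strand genes as a group took 1.69% and 1.83% of the mitochondrial signal in subjective day, compared with 1.11% and 0.830% in objective day. This share was almost entirely that of mt-Nd6. Calls on the minus strand were mt-Nd6, mt-Ts1, mt-Te and mt-Tc, 4 of 9 genes tested, and on the plus strand 15 of 19, of which mt-Th, mt-Ts2 and mt-Tl2 had to be lower. The background was 7.45%, and nothing is read from these counts. Among tRNAs with values of at least 10 in every sample, 6 are encoded on the minus strand (mt-Ts1, mt-Te, mt-Tc, mt-Ta, mt-Tn and mt-Ty) and 2 on the plus strand.

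**Figure D5:**
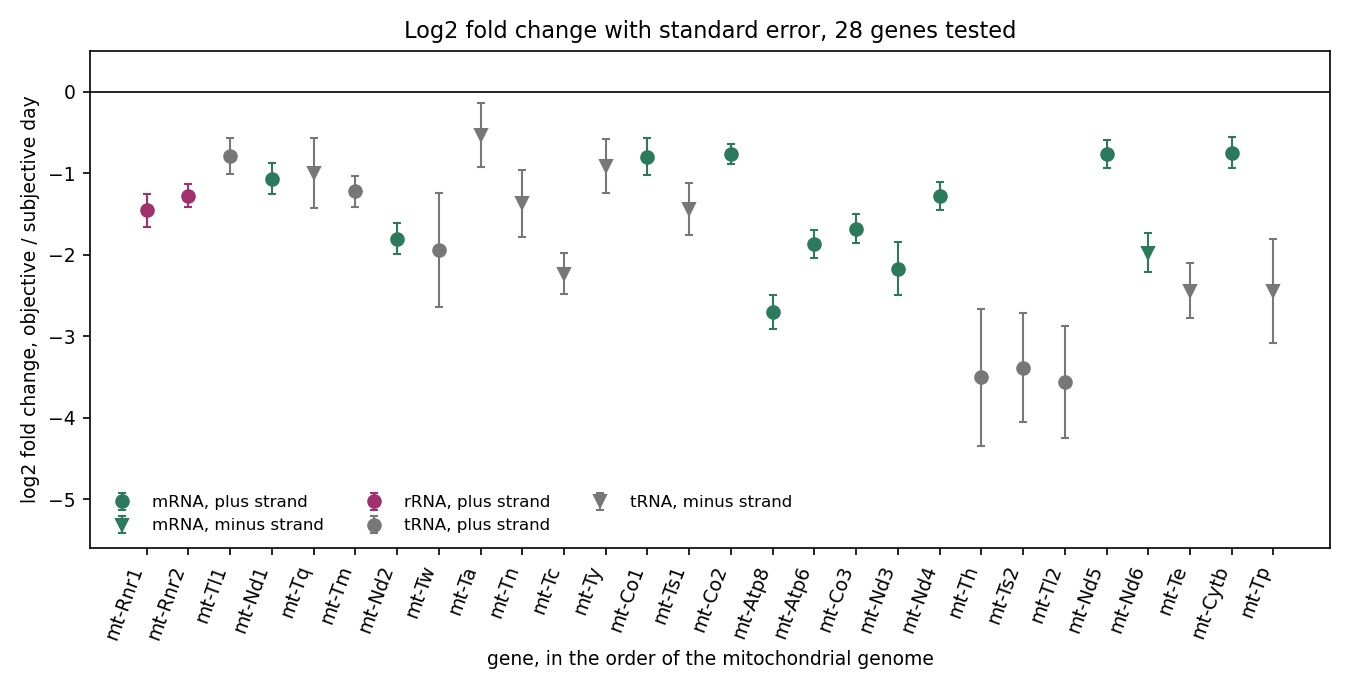
Log2 fold change of objective over subjective day for the 28 genes tested, in their order on the mitochondrial genome, with circles for the plus strand, triangles for the minus strand, colours for mRNA, rRNA and tRNA, and bars for the standard error of limma's fit. The points lie between -3.56 and -0.53. Those of mt-Th, mt-Ts2, mt-Tl2 and mt-Tp passed the filter through subjective day alone, so that their direction was fixed, and change with the pseudocount.

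In 3 of the 13 annotated mRNAs the reading frame ends with a lone base past the last full codon, which a poly-A tail turns into a stop codon. They are shown because the selection of the libraries acts on that tail. The last 30 bases of each frame, all on the plus strand at chrM:9361-9390, chrM:11515-11544 and chrM:15259-15288, are given with the lone base in capitals:

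mt-Co3: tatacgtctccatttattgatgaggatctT
mt-Nd4: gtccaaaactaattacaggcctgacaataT
mt-Cytb: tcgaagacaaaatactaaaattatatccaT

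These 3 mRNAs had log2 fold changes of -1.68, -1.28 and -0.75, on both sides of the median of the mRNAs.

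Samples of the same condition also differed. Objective day replicate 1 was above replicate 2 for 12 of 12 mRNAs and both rRNAs, which held for 55.1% of all genes tested, and the median difference of the mRNAs was 0.46 on the log2 scale, compared with a median absolute difference of 0.10 over all genes. In subjective day replicate 1 was above replicate 2 for 2 of the 12 mRNAs, against 53.8% of all genes, with a median difference of -0.11. The objective day samples thus differed more in these mRNAs than in the median gene, yet the conditions did not overlap for any of them. The median log2 fold change of the mRNAs was -1.70 without objective day replicate 1 and -1.27 without replicate 2, where 7 of the 12 were called beside 3.40% of all genes.

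The nuclear genome encodes the rest of the respiratory chain, and 75 of these subunits were tested. Their median log2 fold change was 0.052, with 25 of 75 below 0. At an adjusted p under 0.05, 2 of the 75 were called lower against a background of 7.45%, and 0 were called higher against a background of 1.06% (8.51% of all genes tested were called in either direction). At an unadjusted p under 0.05 in limma's fit, 7 of the 75 were lower and 6 higher. Over all 17784 genes, 4512 had such a p in either direction. Their summed adjusted counts were 285532 and 262178 in subjective day, compared with 288403 and 275037 in objective day, so that the conditions overlapped. The called genes were Uqcrb of complex III, with a log2 fold change of -0.66 (SE 0.078, adjusted p = 0.00558 in limma's fit), and Atp5j of complex V, with -0.33 (SE 0.061, adjusted p = 0.0195 in limma's fit). The most abundant subunit mRNA, Atp5b of the ATP synthase, had a log2 fold change of 0.066 (SE 0.091).

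Nuclear genes that make, process, stabilize or degrade mitochondrial RNA were listed as well, and 36 were tested. Their median log2 fold change was -0.068. Of the 36, 2 were called lower against the background of 7.45%, and 0 were called higher against 1.06%. At an unadjusted p under 0.05 in limma's fit, 8 of the 36 were lower and 5 higher, beside 4512 of all 17784 genes in either direction. Nothing is read from these counts. Pnpt1, a polynucleotide phosphorylase that takes part in the decay of mitochondrial RNA, had 814 and 924 adjusted counts in subjective day, compared with 535 and 628 in objective day (log2 fold change -0.58, SE 0.11, adjusted p = 0.019 in limma's fit). Mterfd1, also known as MTERF3 and described as a negative regulator of mitochondrial transcription, had 662 and 839 against 516 and 511 (log2 fold change -0.54, SE 0.12, adjusted p = 0.0346 in limma's fit). With the GC trend removed or without objective day replicate 1, 0 of the 36 were called lower. Lrpprc, which stabilizes mitochondrial mRNAs and had the highest level of the list, had 3756 and 3706 in subjective day, compared with 3351 and 3245 in objective day (log2 fold change -0.18, SE 0.058, adjusted p = 0.108 in limma's fit).

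Markers of other tissues moved with the conditions in part, where over all genes 7.45% were called lower and 1.06% higher. An unadjusted p under 0.05 in limma's fit was found for 4512 of all 17784 genes, in either direction. Of 6 ocular surface epithelium markers, 5 were tested and all 5 were called lower in objective day, with summed adjusted counts of 12076 and 12158 in subjective day, compared with 3437 and 5969 in objective day, while Krt12, which defines the cornea, did not exceed 12.5. Of the 3 blood markers tested, 1 was called higher, the haemoglobin gene Hba-a1, with 1119 and 1203 in subjective day, compared with 1738 and 1974 in objective day. It made up most of the sum of the blood markers, which was 1234 and 1395 in subjective day, compared with 1939 and 2198 in objective day. Skeletal muscle, a tissue rich in mitochondria, had summed values of 69988 and 75854 in subjective day, compared with 65896 and 72660 in objective day over 10 markers, none called lower or higher. At an unadjusted p under 0.05 in limma's fit, 1 of the 10 was lower, Myh13, an extraocular muscle myosin named after its values were seen, with 1387 and 1872 in subjective day, compared with 1102 and 299 in objective day. Whether a muscle marker was called changed with the sample left out, and nothing is read from such calls. Although the lens was removed, its markers were present, and they differed more between samples numbered 1 and 2 than between conditions, with 35585 and 4429 in subjective day, compared with 41549 and 10760 in objective day. Rod markers summed to 2394718 and 2103083 in subjective day, compared with 2646940 and 2360285 in objective day, and none of the 9 was called (2 higher at an unadjusted p under 0.05). Of the RPE markers tested, 1 of 5 (Rpe65) was called lower, but 0 with the GC trend removed or without objective day replicate 2, and of the 3 stroma markers of sclera and choroid 0 were called (1 higher at an unadjusted p under 0.05). The part of these tissues in the lower mitochondrial values was not tested.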

How the data were processed

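Per the labels and the Methods, the authors aligned reads with TopHat2 2.0.9 and Bowtie2 2.1.0 to Ensembl release 72, counted with HTSeq and compared conditions with edgeR. The deposited values are a signal per gene, with decimals and similar sums per sample, and were read from these features as counts adjusted for library size. The adjustment is not given in the sources used here, and no count model was used. The authors' own fold changes, mean log2 CPM and p-values were not used.

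Here limma 3.58.1 in R 4.3.3 was fitted to log2(value + 1) of 17784 genes that reached 10 in 2 or more samples, using a mean-dependent variance prior and Benjamini-Hochberg adjustment at 0.05. Fold changes are objective over subjective day. Mitochondrial genes were found by name, with all 33 matched by ID to GENCODE M21 (GRCm38, the assembly of the authors' annotation), which gave positions, lengths, GC content, sequences and 50-base windows shared with nuclear transcripts. For the GC alternative, a local regression with a span of 0.3 was removed per sample (GC known for 98.6% of genes). Members and gene lists were chosen with earlier results of these data known. Nuclear genes are named where called (if 5 or fewer in a list), where among the 3 highest by mean level in their list, or as copies in the table. Best1, Krt12 and Myh13 were named after their values were seen. Where a symbol had 2 rows, the higher was used. The Methods call the samples biological replicates, and with 2 per condition their number limits precision. Alternatives covered scaling, filter, pseudocount, variance prior, threshold, GC content, replicate block and each sample left out.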

Additional observations from a re-analysis of the deposited data

How the results depend on the processing

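Every mRNA and rRNA stayed lower in objective day under all alternatives tried. With the variance prior not following the mean, 0 mitochondrial genes were called, as were 0% of all genes. In that limma fit 24 mitochondrial genes had an unadjusted p under 0.05, as did 3586 of all 17784 genes. At a threshold of 0.01, 11 were called lower (2.29% of all genes), and with the GC trend removed 6 (0.633%), against 19 (7.45%). With the GC trend removed, with or without the replicate block, the medians were -0.78 for mRNAs and -0.60 for rRNAs, and mt-Ta turned to 0.44. The tRNA median, over 14 genes of which 4 passed the filter through subjective day alone, is no sign of stability: it was -1.14 with a pseudocount of 10 and ran from -2.15 to -1.12 with each sample left out. Scaling changed no direction, but mt-Cytb was called as well with scaling by the median ratio. With scaling to the sum of the genes that are not mitochondrial, mt-Cytb, mt-Co1, mt-Tl1 and mt-Tp were called as well. These scalings called 20 and 23 mitochondrial genes lower, beside 7.54% and 8.52% of all genes. With each sample left out, the number called ran from 14 to 21 (14 without objective day replicate 2, where 3.40% of all genes were called lower, and 21 without objective day replicate 1, where 3.94% were), and the medians from -1.70 to -1.27 for mRNAs and from -1.58 to -1.15 for rRNAs. The log2 fold change of mt-Ta ran from -1.10 without objective day replicate 1 to 0.037 without objective day replicate 2. The share difference stayed between 2.82 and 3.59 percentage points.

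Whether samples with the same number share more than that number is not given in the sources used here. Their deviations from the condition means had a correlation of 0.319 across genes. With the replicate block 25 mitochondrial genes were called lower, and 22 with the block and the GC trend removed (13.1% and 4.06% of all genes). The block also called 1 muscle marker, 1 rod marker and 1 lens marker lower, and 3 rod, 1 lens and 1 stroma marker higher. Calls among the rod, lens, stroma and blood markers also changed with the sample left out. Such a fit leaves 1 sample in a condition, and nothing is read from these marker calls. With the block, which called 13.1% of all genes lower and 7.21% higher, 6 nuclear respiratory chain genes were called lower and 8 higher, and 6 regulators of mitochondrial RNA lower and 3 higher. With the GC trend removed, which called 0.633% of all genes lower and 0.570% higher, these counts were 1 and 1, and 0 and 1. The number called in both lists also changed with the sample left out, and nothing is read from the calls of those fits. The causes were not tested. Adjusted values give no depth, so tRNAs near 0 have no counting limit here.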
